A study of Mus musculus with 6 samples.

Results

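The 10 genes described here encode the main angiogenic growth factors, their receptors and the endothelial genes that mark vessel lining: the ligands Vegfa, Vegfb, Vegfc and Angpt2, the receptors Kdr, Flt1, Flt4 and Tek, and the junction genes Pecam1 and Cdh5. They were chosen by gene symbol from the 21720 genes of the deposited table, and all 10 were measured and passed the filter on low counts. The RNA was taken from subcutaneous H22 tumours (H22 is a hepatocellular carcinoma line of the mouse) of female, wild-type BALB/c mice aged 6 to 8 weeks. The control group (3 libraries) received 0.5% carboxymethyl cellulose sodium by gavage, and the luteolin group (3 libraries) received luteolin, a plant flavonoid, at 200 mg/kg. Both groups were gavaged each day for 21 days with 0.2 mL, from a tumour volume of about 50 mm3. Values of a group are given in the order of replicates 1, 2 and 3. The labels do not say that the 3 libraries of a group came from 3 animals, so the p values measure only the spread between these libraries.

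New vessels grow when vascular endothelial growth factor A, which the Vegfa gene encodes, is released by cells short of oxygen and binds its receptor VEGFR2 (Kdr) on endothelial cells. VEGFR1 (Flt1) binds Vegfa, Vegfb and placental growth factor (Pgf) and can act as a decoy, while VEGFR3 (Flt4) binds Vegfc and is best known from lymphatic vessels. The angiopoietins act in parallel through the receptor Tie2 (Tek): Angpt1 stabilizes vessels, and Angpt2, which endothelial cells release on activation, can oppose it. Pecam1 (CD31) and Cdh5 (VE-cadherin) hold endothelial cells together, and Pecam1 is also carried by platelets and many leukocytes. In a graft, the vessels grow in from the host, whereas Vegfa can be made by tumour, stromal and immune cells alike.

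The start regions of the 3 VEGF receptor genes are shown because members of the ETS family of transcription factors, which recognise a GGAA core, regulate endothelial genes. A link between this core and the levels below was not tested. Each sequence runs 5′ to 3′ from 250 bases before to 50 bases after the annotated start (RefSeq, GRCm38.p6), with every GGAA, or TTCC where the core lies on the other strand, in capitals. Kdr is read from chr5:75978406-75978705 on the minus strand, Flt1 from chr5:147725962-147726261 on the minus strand and Flt4 from chr11:49609429-49609728 on the plus strand.
Kdr: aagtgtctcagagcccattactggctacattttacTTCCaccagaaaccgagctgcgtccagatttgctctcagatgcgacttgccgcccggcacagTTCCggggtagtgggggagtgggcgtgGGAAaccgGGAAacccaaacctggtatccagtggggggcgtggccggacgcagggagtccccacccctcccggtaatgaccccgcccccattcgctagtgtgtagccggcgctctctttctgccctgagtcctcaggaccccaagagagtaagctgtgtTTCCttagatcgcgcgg
Flt1: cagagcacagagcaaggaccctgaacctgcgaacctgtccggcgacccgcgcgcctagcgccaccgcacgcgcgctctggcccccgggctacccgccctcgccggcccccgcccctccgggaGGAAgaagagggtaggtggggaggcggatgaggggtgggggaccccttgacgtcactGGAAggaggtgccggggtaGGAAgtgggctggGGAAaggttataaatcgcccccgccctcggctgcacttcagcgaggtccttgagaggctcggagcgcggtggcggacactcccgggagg
Flt4: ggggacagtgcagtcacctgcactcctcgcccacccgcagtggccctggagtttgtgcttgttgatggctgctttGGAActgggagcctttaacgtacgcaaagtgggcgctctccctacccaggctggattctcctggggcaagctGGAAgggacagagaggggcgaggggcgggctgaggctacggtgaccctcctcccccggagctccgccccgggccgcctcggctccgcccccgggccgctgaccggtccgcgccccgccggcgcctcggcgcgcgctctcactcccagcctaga
The letters GGAA or TTCC occurred 5 times in the Kdr window, 4 times in the Flt1 window and 2 times in the Flt4 window. Of 32851 promoters of the same length, 96.0% held the core at least once, with a median of 3 matches, so its presence is common. The longer CCGGAA was found once in the Kdr window and in neither of the others, against 14.9% of all promoters with a match on either strand. A promoter was listed for 7 of the 10 genes, and Pecam1, Cdh5 and Angpt2 had no entry.

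Libraries held 61081637 to 80442954 counts. They also differed by GC content: over genes, the deviation of log2 CPM from the gene's mean was correlated with GC content. The Spearman coefficients were 0.43, -0.18 and -0.54 in the controls and -0.18, 0.45 and -0.37 in the luteolin libraries. Luteolin replicate 2 stood apart from the others through skin genes: the summed level of the 9 tested keratinocyte markers was 10281 CPM (counts divided by the TMM-normalized size of the library) there, 568 in luteolin replicate 1, 158 in luteolin replicate 3 and 177 to 189 in the control libraries. Of these 9 markers, 8 were higher at the study's threshold given below, as were 11.3% of all genes tested. The other marker, Dsp, made up most of the sum in the controls, at 172 to 186 CPM, and was at 142 CPM in luteolin replicate 3. Krt14, a keratin of the basal epidermis, had 0 counts in each control library and 157, 2439 and 4.33 CPM in the luteolin libraries. The markers of the hepatocyte and hepatoma list were mostly low, with Krt18 at 193 to 266 CPM and Afp at 32.7 to 66.7 CPM, while Hnf4a did not pass the filter and 1 of 10 tested genes, Gpc3, was higher at that threshold. The fold changes of the 10 genes are therefore also given without luteolin replicate 2. That fit is not free of the skin signal. In it 8 of the 9 keratinocyte markers still passed the study's threshold as higher, with a median log2 fold change of 9.59, where 7.52% of all genes did. The part of skin tissue in the results was not tested. In these bulk samples, a change in the share of vessel cells and a change in RNA per cell cannot be told apart.

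Of the 10 genes, 9 had a higher fitted level in the luteolin group and Vegfb alone a lower one. Vegfc, Kdr and Pecam1 passed the study's threshold (unadjusted p under 0.05 and a fold change over 2) in edgeR's quasi-likelihood test, and Vegfa passed the p value but not the fold. This is 3 of 10 genes higher, where 11.3% of the 14963 genes tested were called, and 0 of 10 lower, where 1.52% were called. At a Benjamini-Hochberg adjusted p under 0.05 in the same test, 0 of the 10 genes were called, against 1.34% of all genes called higher and 0.187% called lower. At an unadjusted p under 0.05, edgeR gave 4 of the 10, where 20.5% of all genes were called in either direction. The adjusted counts were 4 in DESeq2, where 8.67% of the 17790 genes fitted were called higher, and 5 in voom (limma, with quality weights per sample), where 12.6% were. DESeq2 called Vegfa, Vegfc, Kdr and Pecam1, at adjusted p values of 0.0459, 0.00221, 0.00716 and 0.0165. Voom called the same genes and Flt1, at adjusted p values of 0.00457, 0.00523, 0.0134, 0.0117 and 0.0149 in that order. The tools thus differed over all genes as well as over these 10. The median log2 fold change of the 10 genes was 0.72, beside -0.01 over all genes tested, and 0.60 without luteolin replicate 2.

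**Figure D1:**
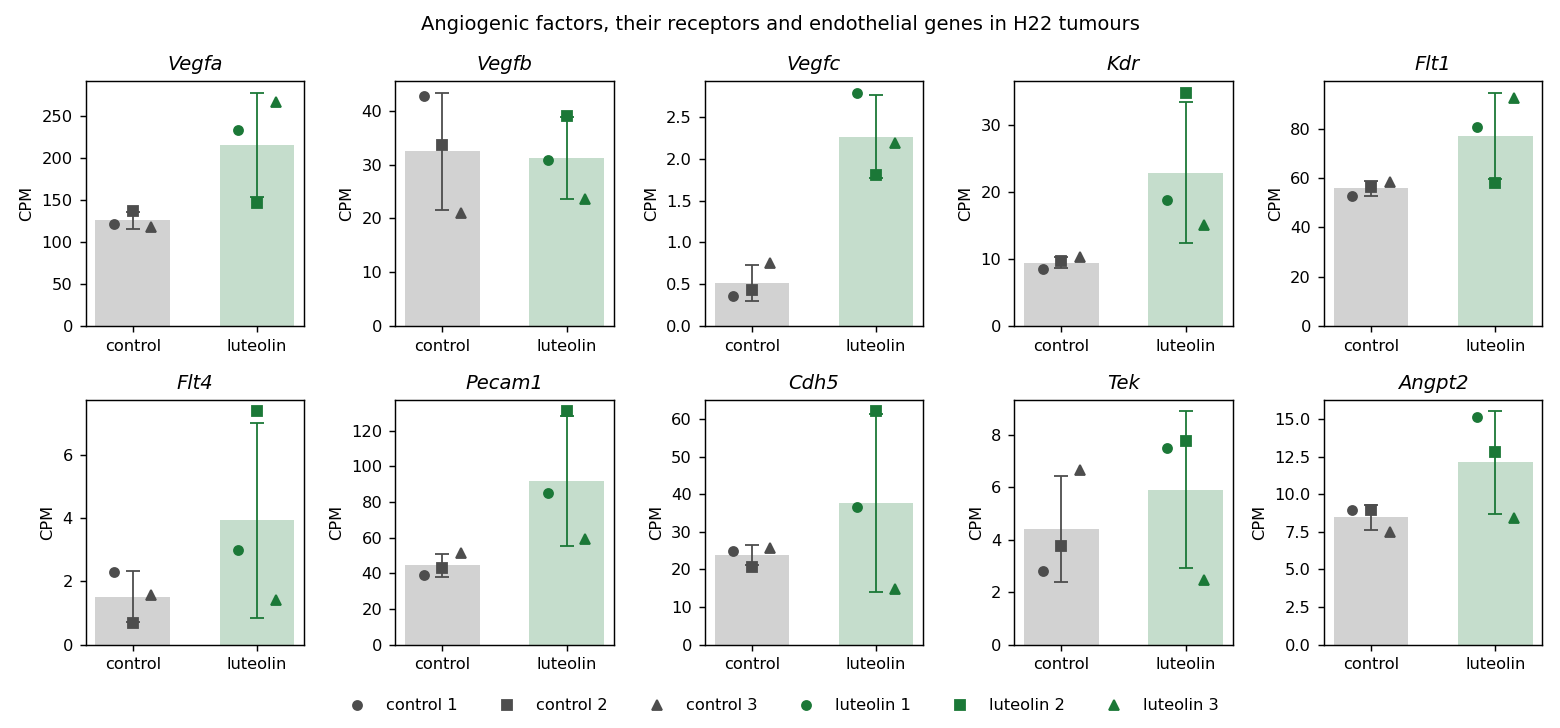
Level of each gene (CPM, vertical axis from 0, a separate scale per panel) in 3 control and 3 luteolin libraries of H22 tumours. Points are libraries, bars are means and error bars are SD (n = 3). Vegfa, Vegfc, Kdr and Pecam1 have all 3 luteolin points above all 3 control points, and luteolin replicate 2 (green squares) holds the highest value of Kdr, Flt4, Pecam1, Cdh5 and Tek.

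Every luteolin library lay above every control library for Vegfa, Vegfc, Kdr and Pecam1, 4 of 10 genes, where 15.9% of all genes tested did so. For 0 of the 10 genes did every luteolin library lie below every control library, where 12.8% of all genes did. The genes did not share 1 pattern across the luteolin libraries. The highest of all 6 values was in luteolin replicate 2 for 5 genes, in luteolin replicate 3 for Vegfa and Flt1, and in luteolin replicate 1 for Vegfc and Angpt2. The highest value of Vegfb was in a control library.

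Among the ligands, Vegfa (chromosome 17, 46016993 to 46032369, GRCm38) was the most abundant. Its level was 121, 137 and 118 CPM in the controls and 233, 146 and 266 CPM in the luteolin libraries. The luteolin libraries were all above the controls, but luteolin replicate 2 exceeded the highest control only narrowly. The means were 125 ± 10.1 and 215 ± 61.9 CPM (SD, n = 3 each), which gave a log2 fold change of 0.78 (SE 0.23, adjusted p = 0.141 in edgeR). Without luteolin replicate 2 the log2 fold change was 1.01 (SE 0.15) and the adjusted p in edgeR's test was 0.0313. This library therefore decided the call in edgeR. With all libraries, the adjusted p of Vegfa was 0.0459 in DESeq2 and 0.00457 in voom. Vegfa was the only one of the 10 genes to reach an adjusted p under 0.05 in edgeR's test when a single library was left out, and 1.82% of all genes were called higher in that fit. In the fits without control replicate 1, 2 or 3 or without luteolin replicate 1, 0 of all genes were called, so no gene of the 10 could be. Its unadjusted p in edgeR was 0.0672 without control replicate 1 and 0.0782 without luteolin replicate 3.

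Vegfc (chromosome 8, 54077606 to 54187096, GRCm38), the ligand of VEGFR3, had the largest fitted difference of the 10 and one of the lowest levels. Its counts were 25, 28 and 49 in the controls and 171, 151 and 140 in the luteolin libraries. In CPM the controls were at 0.358, 0.432 and 0.760 and the luteolin libraries at 2.79, 1.81 and 2.19. All luteolin libraries were more than 2-fold above the highest control, and luteolin replicate 2 was here the lowest of its group. The log2 fold change was 2.13 (SE 0.51, unadjusted p = 0.0041, adjusted p = 0.0926 in edgeR's test). It was 2.29 without luteolin replicate 2, and it stayed between 1.91 and 2.51 across all alternatives.

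Vegfb (chromosome 19, 6982473 to 6987651, GRCm38), a ligand of VEGFR1, did not separate the groups. It was measured at 42.7, 33.6 and 21.1 CPM in the controls and at 30.9, 38.9 and 23.7 CPM in the luteolin libraries. The luteolin values lay inside the range of the controls. The log2 fold change was -0.06 (SE 0.31, adjusted p = 0.943 in edgeR's test), and -0.24 without luteolin replicate 2.

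Angpt2 (chromosome 8, 18690263 to 18741562, GRCm38), the ligand of Tie2 that endothelial cells store and release, was at 8.94, 8.97 and 7.47 CPM in the control libraries and at 15.2, 12.8 and 8.43 CPM in the luteolin libraries. Luteolin replicate 3 fell among the controls, so the groups overlapped. Its log2 fold change of 0.52 (SE 0.29) had an adjusted p of 0.371 in edgeR and hardly moved without luteolin replicate 2 (0.50).

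Of the receptors, Kdr (chromosome 5, 75932827 to 75978458, GRCm38) was the one that passed the study's threshold. It had 8.53, 9.65 and 10.3 CPM in the controls and 18.8, 34.9 and 15.1 CPM in the luteolin libraries. The controls were close together and each luteolin library was above them. The group means were 9.49 ± 0.895 and 22.9 ± 10.5 CPM (SD, n = 3 each), which gave a log2 fold change of 1.27 (SE 0.34, unadjusted p = 0.00758, adjusted p = 0.114 in edgeR). Without luteolin replicate 2 it was 0.86 (SE 0.21, unadjusted p = 0.00556 in edgeR's test), under the fold change of the study's threshold.

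Flt1 (chromosome 5, 147561604 to 147726011, GRCm38) was the most abundant VEGF receptor per kilobase, and its order within the luteolin group, though not within the controls, was that of Vegfa. Its values were 52.6, 56.6 and 58.4 CPM in the controls, against 80.7, 58.0 and 92.5 CPM in the luteolin libraries. Luteolin replicate 2 lay just under the highest control, and the other luteolin libraries lay above all controls. The log2 fold change was 0.46 (SE 0.20, adjusted p = 0.251) with all libraries and 0.65 (SE 0.15, adjusted p = 0.0941) without luteolin replicate 2, both in edgeR. The table holds 1 value for the gene, so the membrane and soluble forms of VEGFR1 were not separated.

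Flt4 (chromosome 11, 49609263 to 49652739, GRCm38), the receptor of Vegfc, was at 2.29, 0.680 and 1.57 CPM in the controls and at 2.99, 7.37 and 1.41 CPM in the luteolin libraries. The controls differed among themselves by over 3-fold, and luteolin replicate 3 was inside their range. Its log2 fold change of 1.38 (SE 0.73, adjusted p = 0.347 in edgeR) was 0.55 without luteolin replicate 2. The groups of Flt4 therefore overlapped, whereas those of its ligand Vegfc did not, and the difference between the genes was not tested.

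Tek (chromosome 4, 94739289 to 94874976, GRCm38), the angiopoietin receptor, had 2.82, 3.74 and 6.67 CPM in the controls and 7.51, 7.74 and 2.44 CPM in the luteolin libraries. Luteolin replicate 3 was the lowest of all 6 libraries, while the other luteolin libraries were the highest. The log2 fold change was 0.42 (SE 0.55, adjusted p = 0.733 in edgeR) and 0.19 without luteolin replicate 2.

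The values of the junction genes Pecam1 and Cdh5 parted in luteolin replicate 3. Pecam1 (chromosome 11, 106654217 to 106750628, GRCm38) was at 38.8, 43.1 and 51.2 CPM in the controls and at 85.0, 131 and 59.3 CPM in the luteolin libraries. All luteolin libraries exceeded all controls. The means were 44.4 ± 6.32 and 91.8 ± 36.3 CPM (SD, n = 3 each), which gave a log2 fold change of 1.05 (SE 0.30, unadjusted p = 0.00974, adjusted p = 0.126 in edgeR). Without luteolin replicate 2 it was 0.72 (unadjusted p = 0.014 in edgeR's test), below the fold change of the study's threshold, and without control replicate 1 or 2 it was 0.92 and 1.00, also below.

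Cdh5 (chromosome 8, 104101625 to 104144511, GRCm38), which is more restricted to endothelial cells than Pecam1, had 24.98, 20.7 and 25.7 CPM in the control libraries and 36.5, 62.1 and 14.8 CPM in the luteolin libraries. Luteolin replicate 3 was the lowest of the 6 libraries for Cdh5, although it was above every control for Pecam1. The log2 fold change of Cdh5 was 0.67 (SE 0.47, adjusted p = 0.484 in edgeR) and 0.12 (SE 0.37) without luteolin replicate 2. The leukocyte list, whose cells also carry Pecam1, had a summed level of 511 to 549 CPM in the control libraries and 654, 935 and 689 CPM in the luteolin libraries, with all 5 markers tested. Of these, 4 passed the study's threshold as higher, Ptprc, Cd52, Coro1a and Laptm5, and 1 did with luteolin replicate 2 left out, Ptprc. Of all genes, 11.3% passed it as higher, and 7.52% with luteolin replicate 2 left out. The remaining leukocyte marker, Itgb2, was the most abundant of that list and did not separate the groups. It was at 355, 329 and 333 CPM in the controls and at 291, 362 and 336 CPM in the luteolin libraries. Its log2 fold change was -0.04 (adjusted p = 0.912 in edgeR). Among platelet markers, Itga2b had a log2 fold change of -0.03 and Gp1ba of -0.09, and Gp6 was at 0 in all 6 libraries. The platelet list summed to 14.4 to 20.8 CPM in the controls and to 24.8, 43.1 and 21.8 CPM in the luteolin libraries, and 1 of its 4 tested genes, Pf4, passed the study's threshold. The part of either cell type in the Pecam1 level was not tested.

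**Figure D2:**
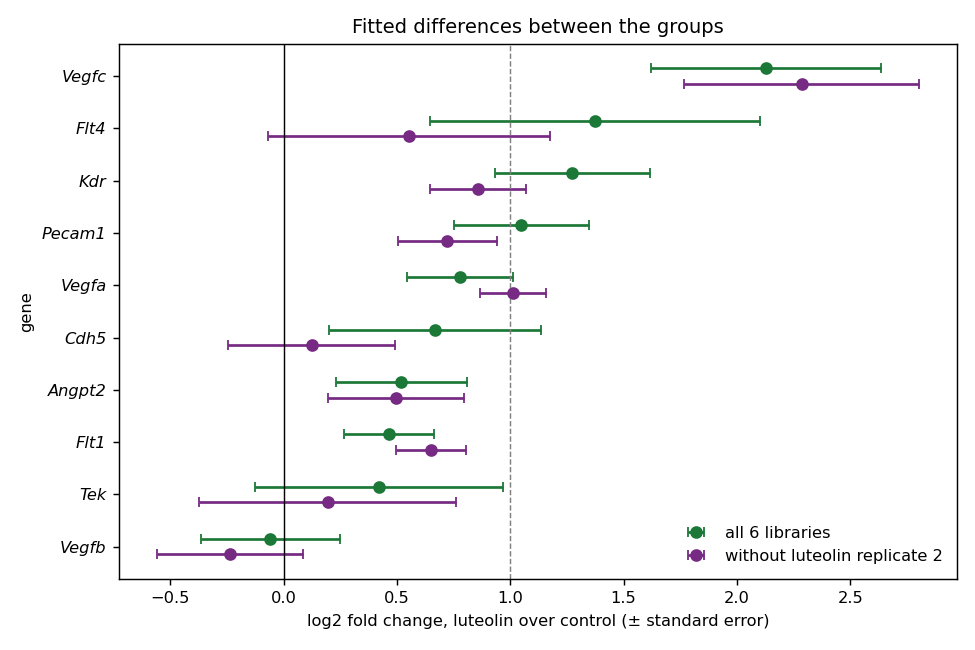
Log2 fold change of luteolin over control (horizontal axis) for the 10 genes (vertical axis), from edgeR's fit, with all 6 libraries (green) and without luteolin replicate 2 (purple). Error bars are standard errors and the dashed line marks a log2 fold change of 1. Without that library Vegfa and Flt1 move to the right, from 0.78 to 1.01 and from 0.46 to 0.65, while Flt4, Kdr, Pecam1 and Cdh5 move towards 0.

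To compare genes with each other, levels were divided by the exon length of each gene. Per kilobase, the order from highest to lowest mean was Vegfa, Vegfb, Pecam1, Cdh5, Flt1, Angpt2, Kdr, Tek, Vegfc and Flt4, and all 10 genes held the same place in both groups. In the control group the means ran from 29.3 CPM per kilobase for Vegfa to 0.184 for Flt4, with Flt1 at 4.14 and Kdr at 1.05. Of the 9 neighbouring pairs, 7 did not overlap between control libraries, and Kdr with Tek and Vegfc with Flt4 did. In the luteolin group 6 of the 9 pairs overlapped.

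The wider VEGF and angiopoietin systems were read from lists of gene symbols. The VEGF list of ligands, receptors and co-receptors had 10 tested genes, 6 of them among the genes above, and 4 were higher at the study's threshold, Vegfc, Vegfd, Pgf and Kdr (edgeR, 11.3% of all genes). Its median log2 fold change was 1.03, beside -0.01 for all genes. With luteolin replicate 2 left out, 4 genes again passed, with Vegfa in place of Kdr, where 7.52% of all genes did. Pgf, placental growth factor, was at 7.07, 7.49 and 5.99 CPM in the control libraries and at 35.1, 16.1 and 22.1 CPM in the luteolin libraries. The groups were well apart, with a log2 fold change of 1.84 (SE 0.33, adjusted p = 0.0515 in edgeR). The value was 2.08 without luteolin replicate 2, with an adjusted p of 0.0256 in edgeR's test. Vegfd, the other ligand of VEGFR3, had a log2 fold change of 2.35 (SE 0.64, adjusted p = 0.117 in edgeR; 1.84 without luteolin replicate 2) from levels of 0.343 to 1.14 CPM in the controls and 2.10 to 5.90 CPM in the luteolin group.

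The neuropilin co-receptors gave small differences. Nrp1 had 17.3 to 19.7 CPM in the control and 21.1 to 29.0 CPM in the luteolin libraries, with a log2 fold change of 0.40 (adjusted p = 0.332 in edgeR). Nrp2 was the most abundant gene of the list, at 470 to 538 CPM in the controls and 615, 315 and 485 CPM in the luteolin libraries, with a log2 fold change of -0.11 (adjusted p = 0.845 in edgeR) that was 0.13 without luteolin replicate 2.

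In the angiopoietin and Tie list, 2 of 8 tested genes were higher at the study's threshold in edgeR, Angpt1 and Svep1, where 11.3% of all genes were. The median log2 fold change of the list was 0.60. Angpt1, the Tie2 agonist made by perivascular cells, had low counts, 22, 16 and 60 in the controls and 69, 134 and 136 in the luteolin libraries. Its level was 0.247 to 0.930 CPM in the controls and 1.13, 1.60 and 2.13 CPM in the luteolin libraries (log2 fold change 1.70, adjusted p = 0.217 in edgeR). Svep1, an extracellular matrix protein, had 10.2 to 18.7 CPM in the controls and 32.0, 58.4 and 23.0 CPM in the luteolin libraries (log2 fold change 1.37, adjusted p = 0.129 in edgeR). Tie1, Ptprb, Dok2 and Angpt4 had log2 fold changes of 0.69, 0.78, 0.31 and 0.11, with adjusted p values of 0.548, 0.427, 0.449 and 0.962 in edgeR. Tie1 and Angpt4 turned to -0.07 and -0.40 without luteolin replicate 2. Without luteolin replicate 2, 0 of the 8 genes passed the study's threshold in edgeR, where 7.52% of all genes passed it as higher. Angpt1 and Svep1 then had unadjusted p values of 0.0541 and 0.0157 in edgeR.

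**Figure D3:**
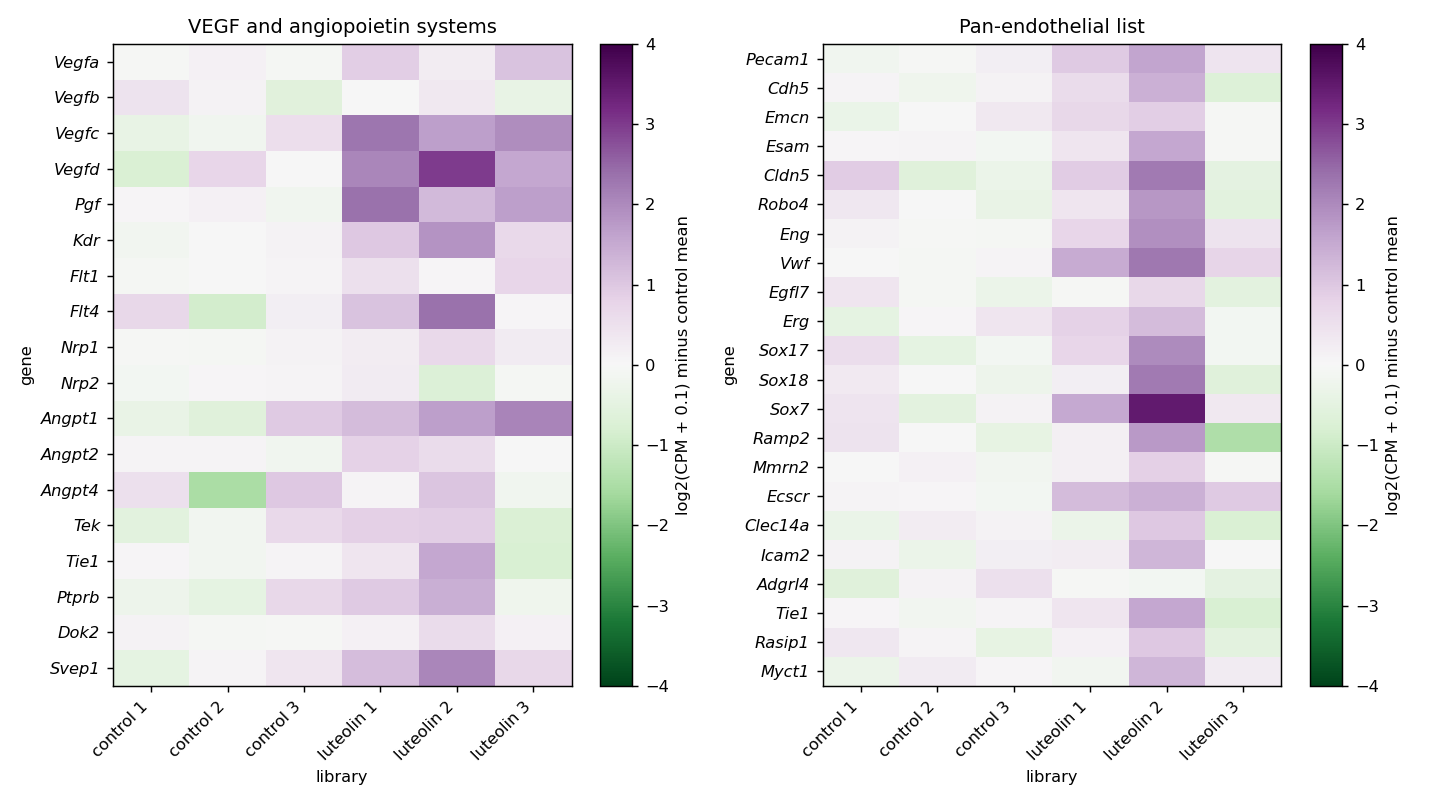
Heat map of log2(CPM + 0.1) minus the mean of the control libraries (colour scale) for the genes of the VEGF and angiopoietin lists (left) and of the pan-endothelial list (right) in the 6 libraries (columns). Purple is above and green below the control mean. Vegfc, Vegfd and Pgf are purple in all 3 luteolin libraries, whereas most pan-endothelial genes are purple in luteolin replicate 2 and near or below the control mean in luteolin replicate 3.

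The endothelial identity of the signal was examined with a list of 22 pan-endothelial genes, all of which were tested. In edgeR's fit 21 of the 22 had a positive log2 fold change, with a median of 0.70, and 5 passed the study's threshold as higher, Pecam1, Eng, Vwf, Sox7 and Ecscr. This is 5 of 22 where 11.3% of all genes were called, and 0 passed at an adjusted p under 0.05 in edgeR. The list's summed level was 172 to 183 CPM in the control libraries and 271, 489 and 177 CPM in the luteolin libraries. By this sum luteolin replicate 3 lay within the range of the controls, and luteolin replicate 2 held the highest level. Without luteolin replicate 2, 14 of the 22 fold changes were positive, the median was 0.13 and 2 genes passed the study's threshold in edgeR, Vwf and Ecscr, where 7.52% of all genes were called. Vwf, which encodes the von Willebrand factor of endothelial storage granules, had 4.53 to 5.12 CPM in the controls and 13.8, 23.4 and 8.28 CPM in the luteolin libraries (log2 fold change 1.65, adjusted p = 0.0965 in edgeR). Ecscr, an endothelial surface protein, had 3.86 to 4.35 CPM in the controls and 9.78, 10.95 and 8.17 CPM in the luteolin libraries (log2 fold change 1.21, adjusted p = 0.0815 in edgeR).

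The profile most like that of Cdh5 over the 6 libraries was sought among 14962 genes, as the smallest root-mean-square difference of centred log2 CPM. Tie1 was nearest, with a difference of 0.126, followed by Fgd5, Ebf3, Tmem102 and Olfml2a at 0.163 to 0.173. Of the other 9 genes of the group, Tek ranked 313 and Pecam1 ranked 360, whereas Flt1, Vegfa and Vegfc ranked 8497, 9958 and 12706.

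Since the libraries differed in endothelial level, each gene was also expressed relative to the mean log2 CPM of the 20 pan-endothelial genes that are not among the 10. This reference was 2.06, 1.87 and 1.91 in the controls and 2.44, 3.49 and 1.75 in the luteolin libraries. Luteolin replicate 3 had the lowest reference of all 6 libraries and luteolin replicate 2 the highest, which raises every relative value of the first and lowers every one of the second. Kdr was 1.04, 1.40 and 1.46 log2 units above this level in the controls and 1.79, 1.64 and 2.17 above it in the luteolin libraries. Kdr was the only one of the 10 genes whose groups did not overlap on this scale, where 6.73% of 14943 genes had every luteolin library above every control, with a difference of 0.57 (exact two-sided permutation test, p = 0.1, adjusted p = 0.667 over 10 genes; 0.1 is the smallest p that 3 libraries against 3 can give). The direction of Kdr was the same with Cdh5 as the reference and with each library left out, at 0.42 to 0.74. Vegfc had the largest difference, 1.502, but its control range reached -2.25 and luteolin replicate 2 was at -2.61 (exact permutation test, p = 0.2, adjusted p = 0.667).

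On the same scale, Vegfa and Flt1 were spread most widely within the luteolin group. Vegfa was 5.42, 3.71 and 6.30 log2 units above the endothelial level in the luteolin libraries, against 4.87 to 5.22 in the controls. Flt1 was 3.89, 2.37 and 4.78 above it in the luteolin libraries, against 3.66 to 3.96 in the controls. Both were lowest where the endothelial level was highest. On this scale 5 of the 10 genes, in place of 1, were higher in every remaining luteolin library without luteolin replicate 2, where 11.7% of all genes were.

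**Figure D4:**
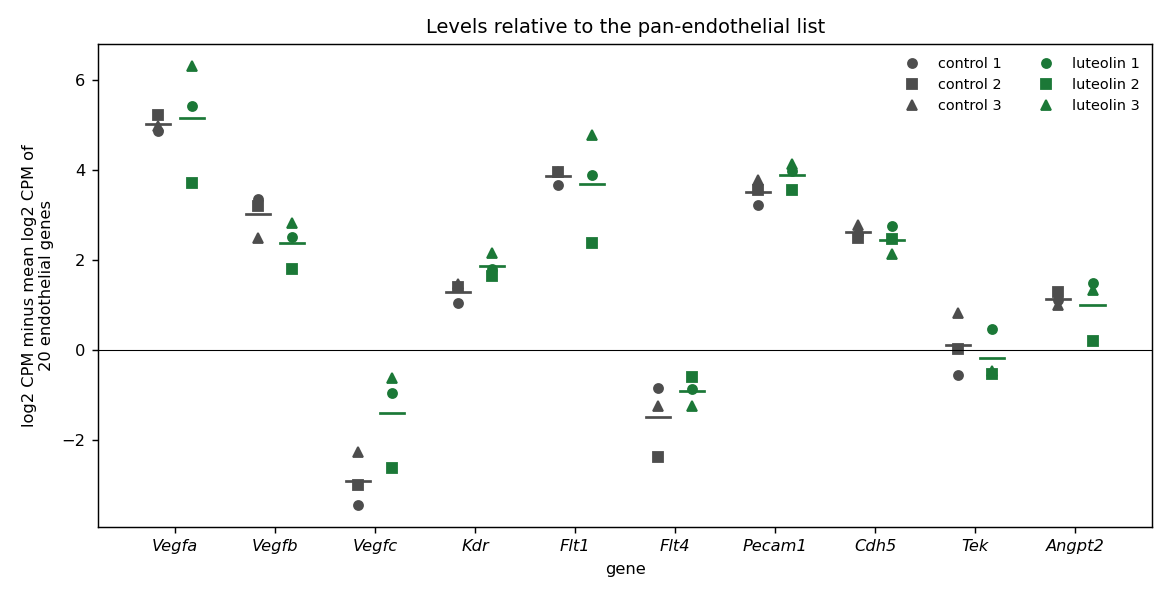
Level of each gene relative to the pan-endothelial level (vertical axis, log2 CPM minus the mean log2 CPM of 20 endothelial genes) in each library. Points are libraries (grey control, green luteolin) and short lines are group means. Kdr is the gene whose luteolin points, 1.64 to 2.17, all lie above its control points, 1.04 to 1.46, while Vegfa and Flt1 spread over more than 2 log2 units in the luteolin group.

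Among genes that induce or accompany Vegfa under low oxygen, 2 of 16 tested were higher at the study's threshold, near the 11.3% of all genes. The same 2 were higher at an adjusted p under 0.05 in edgeR (1.34% of all genes). For 6 every luteolin library lay above every control library, against 15.9% of all genes, and for 0 below, against 12.8%. Adm, the vasodilator adrenomedullin, had 2.45, 3.74 and 2.64 CPM in the controls and 18.8, 12.5 and 14.9 CPM in the luteolin libraries (log2 fold change 2.39, adjusted p = 0.0331 in edgeR). Egln3, an oxygen-sensing prolyl hydroxylase, had 3.32 to 6.67 CPM in the controls and 18.9 to 21.9 CPM in the luteolin group (log2 fold change 1.97, adjusted p = 0.0420 in edgeR). The glycolytic enzymes Pgk1, Ldha and Aldoa had log2 fold changes of -0.18, -0.22 and 0.31 (adjusted p = 0.551, 0.475 and 0.236 in edgeR), the glucose transporter Slc2a1 had 0.74 (adjusted p = 0.0973 in edgeR), and the median of the list was 0.37. Adm and Egln3 kept their calls without luteolin replicate 2, with adjusted p values of 0.0226 and 0.0393 in edgeR.

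Other vessel-associated lists are given by their counts at the study's threshold, beside 11.3% of all genes with all libraries and 7.52% without luteolin replicate 2, and no list was tested against another. Of 6 tested genes of activated endothelium, 5 were higher at the study's threshold in edgeR and 4 without luteolin replicate 2, with a median log2 fold change of 1.91. Selplg, the selectin ligand carried by leukocytes rather than endothelium, had a log2 fold change of 1.76 (adjusted p = 0.0552 in edgeR), and Icam1, an adhesion molecule that many cell types carry, had 1.59 (adjusted p = 0.0862 in edgeR). Of 12 tested pericyte and smooth muscle genes, 3 were higher, with a median of 0.47, and without luteolin replicate 2 5 were higher (Pdgfrb, Cspg4, Acta2, Myh11 and Tagln) with a median of -0.04. Cspg4 and Pdgfrb, both pericyte markers that other stromal cells share, had log2 fold changes of 1.95 and 1.21 (adjusted p = 0.0532 and 0.0710 in edgeR), while Rgs5 had -0.19. Of 6 tested lymphatic genes, 2 were higher, Pdpn and Ccl21a, and Pdpn, which fibroblasts and keratinocytes also express, had an adjusted p of 0.0480 in edgeR. The defining lymphatic factor Prox1 did not pass the filter on low counts. Of 10 tested Notch genes, 1 was higher at the study's threshold, Notch1, with a log2 fold change of 1.73 that was 0.73 without luteolin replicate 2. Jag1 of this list had 0.47 (adjusted p = 0.238 in edgeR).

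Of 13 tested angiogenesis inhibitors, 6 were higher at the study's threshold in edgeR, 2 of them at an adjusted p under 0.05. For all genes these shares were 11.3% and 1.34%. Timp3, a metalloproteinase inhibitor that also blocks the binding of Vegfa to VEGFR2, had 17.6, 27.1 and 22.5 CPM in the controls and 165, 90.1 and 125 CPM in the luteolin libraries. Its log2 fold change was 2.50 (SE 0.28, adjusted p = 0.0331 in edgeR). Serpinf1, pigment epithelium-derived factor, had 28.6 to 33.2 CPM in the controls and 60.8 to 72.9 CPM in the luteolin group (log2 fold change 1.16, adjusted p = 0.0331 in edgeR). Of 17 other angiogenic growth factors, 4 were higher at the study's threshold in edgeR, with a median of 0.81. Ccn1 had a log2 fold change of 1.05 (adjusted p = 0.0505 in edgeR), and Pdgfa had 0.93 (adjusted p = 0.103 in edgeR). Of 18 tested genes downstream of VEGFR2, 2 were higher at the study's threshold, Fyn and Sh2d2a, both also known from T cells. At an adjusted p under 0.05 in edgeR 1 was called, Fyn (adjusted p = 0.0403), where 1.34% of all genes were called higher. The median of 0.08 for this list was near that of all genes. The T-cell list had all 7 tested genes higher at the study's threshold in edgeR, with summed levels of 13.4 to 16.0 CPM in the controls and 46.6 to 91.0 CPM in the luteolin group, and its part in Fyn and Sh2d2a was not tested.

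Summed marker levels of macrophages and fibroblasts, cells that can express Vegfa or Flt1, did not overlap between the groups and were the higher ones under luteolin, whereas those of adipocytes and skeletal muscle overlapped. The macrophage list of 10 genes summed to 1021 to 1256 CPM in the controls and to 1616, 2436 and 1905 CPM in the luteolin libraries. In this list 2 genes were past the study's threshold in edgeR, and C1qa, the most abundant, had a log2 fold change of 0.80. Beside this list and those that follow, 11.3% of all genes passed that threshold as higher. The fibroblast list summed to 1415 to 1577 CPM in the controls and to 4111, 5035 and 2029 CPM in the luteolin libraries. In it 5 of 8 genes were past the study's threshold, and Col3a1, the most abundant, had a log2 fold change of 1.23. Every luteolin library lay above every control for 6 of the 10 macrophage genes and 6 of these 8, where 15.9% of all genes did. Of the macrophage genes 2, and of the fibroblast genes 4, passed that threshold with luteolin replicate 2 left out, beside 7.52% of all genes. Adipocyte markers summed to 19.3 to 73.3 CPM in the controls and to 55.8, 312 and 19.98 CPM in the luteolin libraries, and skeletal muscle markers to 461 to 1059 CPM and 231 to 1050 CPM in the control and luteolin groups, with 0 genes of either list past the study's threshold. The part of these cells in the levels of the 10 genes was not tested.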

How the data were processed

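RNA-seq of H22 tumours from 3 control and 3 luteolin libraries was analysed, and 0 columns of the table were left out. The table the authors deposited gives a whole number for each gene symbol and library, not scaled between libraries and treated here as an estimated count: 44.8% of the values from 1 to 40 are multiples of 4, so 1 unit need not be 1 read pair. The submitters' processing notes name bcl2fastq 2.0, HISAT2, StringTie and DESeq2 and the builds mm39 and rn6. The counting settings are not given in the sources used here, and the kits named in the labels and in the paper differ.

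The whole table was fitted in R 4.3.3 with edgeR 4.0.16 (TMM, filterByExpr, quasi-likelihood test, two-sided, Benjamini-Hochberg adjustment over 14963 genes). CPM are counts scaled to the TMM-normalized total, and log2 CPM has a prior count of 2. Gene positions and exon lengths (union of exons) are from GENCODE M21 on GRCm38, and were not used for counting. Alternatives were DESeq2 1.42.0, voom of limma 3.58.1, RLE and upper-quartile normalization, other filters, values divided by 4, a GC content offset, each library left out, and a block on the replicate number. The fit was tested on simulated data. Genes, lists and tests were chosen with earlier results of these data known. Named are the 10 genes, all genes of the VEGF and angiopoietin lists, and the 2 genes with the smallest p of each other list. Also named are the 5 genes nearest to Cdh5. The most abundant gene of each marker list is named except for T cells, adipocytes and skeletal muscle. Other genes were named after their values were seen. Counts of lists without luteolin replicate 2 were added after the data had been seen.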

Additional observations from a re-analysis of the deposited data

How the results depend on the processing

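The number of the 10 genes called at an adjusted p under 0.05 was 0 in edgeR, 4 in DESeq2, 5 in voom with quality weights and 1, Vegfc, with the GC content offset in edgeR, beside 1.34%, 8.67%, 12.6% and 4.34% of all genes called higher. With each library left out in turn it was 0 to 1 in edgeR (Vegfa, without luteolin replicate 2). Without control replicate 1, 2 or 3 or without luteolin replicate 1 it could only be 0, since 0 of all genes were called there. The number at the study's threshold was 2 to 4, from 3. Leaving out luteolin replicate 3 gave the 4, where 2104 of all 15512 genes were called higher. Leaving out control replicate 1, control replicate 2 or luteolin replicate 2 gave 2, where 1331 of 15513, 1302 of 15530 and 1139 of 15137 were. With all libraries 1687 of 14963 were. Vegfb turned direction without control replicate 1 (log2 fold change 0.15) and without luteolin replicate 3 (0.05), with -0.30 to 0.15 over the libraries left out. Relative to the pan-endothelial level, 1 gene was higher in every luteolin library, 2 with Cdh5 as the reference and 1 to 5 with each library left out (5 without luteolin replicate 2), and 0 were lower, or 0 to 1 with each library left out. The cause of these shifts was not tested. The labels do not say that the replicate numbers pair the libraries. Same-numbered libraries had correlations of deviations from the group means of -0.20, -0.09 and 0.06, and not every library correlated best with its own number. With 3 libraries per group these correlations cannot decide whether the numbers pair them. With the replicate block 2 of the 10 genes passed the study's threshold and 0 an adjusted p under 0.05 in edgeR, with 4 at an unadjusted p under 0.05, beside 8.64%, 0.227% and 15.4% of all genes. The low counts of Vegfc and Flt4 limit their precision, since 1 unit need not be 1 read pair.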

Other observations

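Among the sprouting genes, Apln and Esm1, both induced in the tip cells of growing vessels, had lower mean levels in the luteolin group, and were chosen after their values were seen. Apln, the ligand apelin, was at 40.8, 45.6 and 44.5 CPM in the controls and at 34.5, 30.6 and 24.3 CPM in the luteolin libraries. All luteolin libraries were below all controls, which held for 12.8% of all genes tested. Its log2 fold change was -0.55 (unadjusted p = 0.0196, adjusted p = 0.168 in edgeR's test), and -0.55 without luteolin replicate 2. Esm1, endocan, had 24.2, 42.9 and 40.2 CPM in the controls and 25.01, 16.4 and 12.7 CPM in the luteolin libraries, so that the groups overlapped through control replicate 1 and luteolin replicate 1. Its log2 fold change was -0.99 (SE 0.33, adjusted p = 0.169 in edgeR). The receptor of apelin, Aplnr, had 6.07 to 8.59 CPM in the controls and 6.14, 24.3 and 3.44 CPM in the luteolin libraries. Other genes of the same list were higher at the study's threshold in edgeR, 5 of 13, among them Plvap, Unc5b and Cxcr4, where 11.3% of all genes were. Plvap, a protein of fenestrated vessels, was at 6.93 to 9.16 CPM in the controls and at 21.5, 62.9 and 7.73 CPM in the luteolin libraries. Cxcr4, which leukocytes also carry, had a log2 fold change of 1.07 (adjusted p = 0.0694 in edgeR). Without luteolin replicate 2 the list had 1 gene of 13 higher at the study's threshold, Pgf, near the 7.52% of all genes.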
